A study of Mus musculus with 6 samples.

Results

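Bone morphogenetic proteins (BMPs) are secreted growth factors of the TGF-beta superfamily, and 9 genes of their extracellular control were followed in infarcted mouse hearts that carried or lacked the atypical chemokine receptor ACKR4. They are the ligand genes Bmp2, Bmp4, Bmp5, Bmp6 and Bmp7, the genes of the secreted antagonists Grem1, Chrdl1 and Bmper, and Bambi. Bambi encodes a membrane protein, a pseudoreceptor without a kinase domain, so it blocks the pathway at the cell surface and is not itself secreted. The 9 genes were taken by symbol from the 54532 rows of a table of read counts, and all 9 had a row. They were put together with their levels in the compared groups already known, so the levels of these 9 genes are given below as a description, with no test.

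BMP dimers bind a complex of type I and type II serine-threonine kinase receptors, which phosphorylate SMAD1, SMAD5 and SMAD9. These enter the nucleus with SMAD4 and switch on genes such as those of the ID family and the inhibitory Smad6 and Smad7. Secreted antagonists bind the ligands outside the cell and keep them from the receptors. In the heart BMPs are known for the formation of valves and chambers, and in injured tissue for effects on vessels and on fibroblasts that differ between ligands.

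Each of the 6 libraries came from heart tissue of C57BL/6 mice aged 8 to 10 weeks, collected at day 14 after myocardial infarction. The WT group was wild type and the ACKR4_KO group lacked ACKR4, a receptor that takes up and degrades chemokines such as CCL19 and CCL21, with 3 libraries in each group. All 6 libraries were of infarcted heart, and none was of uninjured heart. How the Ackr4 allele was made, which part of the heart was taken and whether a library is 1 animal are not stated in the sources used here, so p-values measure the spread between these libraries, which may be in part technical. Libraries held 9422462 to 13910358 reads. Ackr4 had 151 to 169 reads in the WT libraries and 1 to 12 in the ACKR4_KO libraries. Levels are given in CPM, the read count scaled to a common library size. The summed level of 8 cardiomyocyte markers was 31850 to 40480 CPM in WT and 41610 to 58160 CPM in ACKR4_KO, without overlap. The ACKR4_KO libraries differed more among themselves, with a biological coefficient of variation of 26.8% against 11.7% in WT.

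Levels in ACKR4_KO were below those in WT for 7 of the 9 genes in every library, namely Bmp2, Bmp4, Bmp5, Grem1, Chrdl1, Bmper and Bambi. The groups overlapped in Bmp6 and Bmp7. Among the 14406 genes that passed the filter on low counts, 7.63% lay lower in ACKR4_KO with no overlap between the groups and 6.53% lay higher. Grem1 did not pass the filter, and of the 8 genes that passed, 6 lay lower without overlap. Since the genes were chosen from this same comparison, nothing is read from that count. The median fitted log2 fold change of the 8 was -0.61, beside 0.01 over all genes tested. In bulk tissue, fewer cells of a type and less RNA per cell cannot be told apart.

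**Figure D1:**
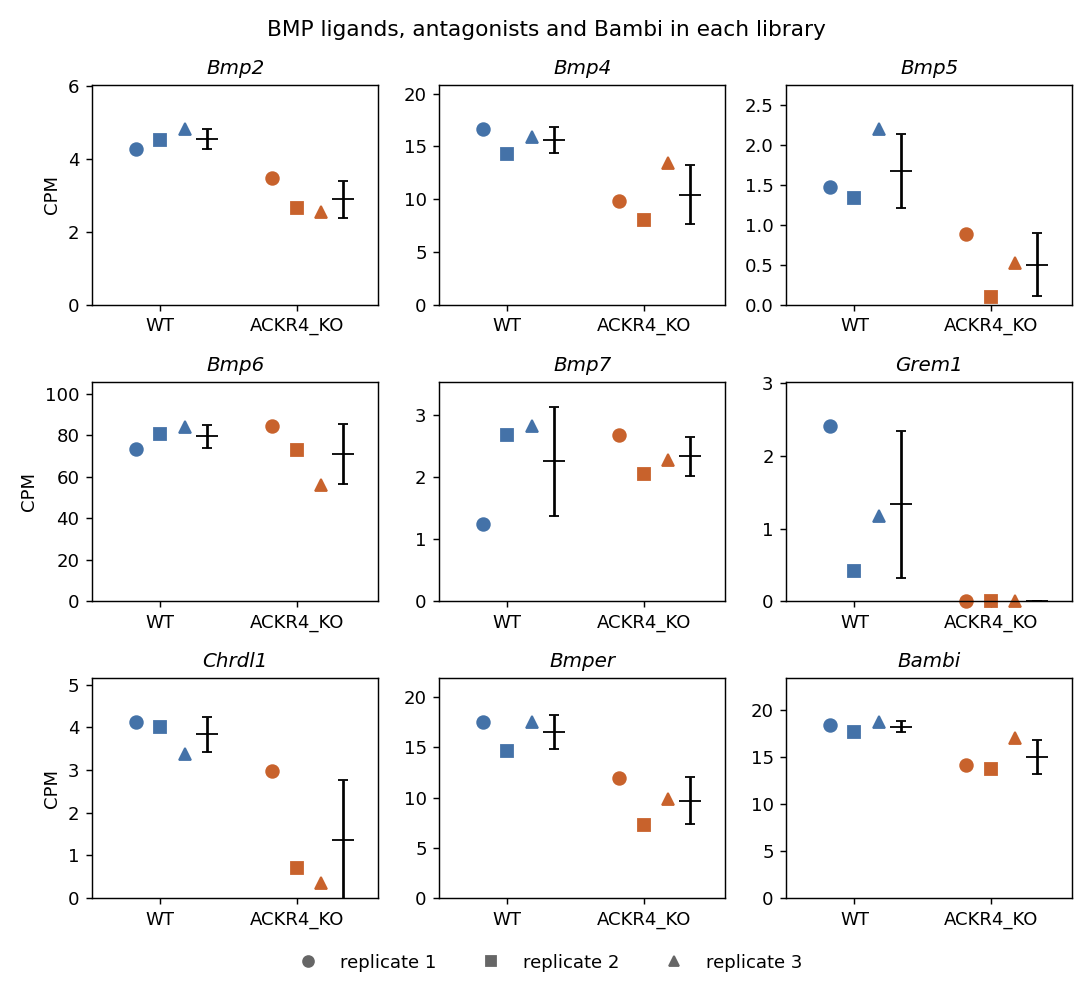
Level of each gene in each library, in CPM on a linear axis from 0, with WT in blue and ACKR4_KO in orange. Symbols mark the replicate number, which is not known to link the groups. The bar beside each group is the mean ± SD (n = 3), and the lower bar of Chrdl1 in ACKR4_KO reaches below 0 and is clipped. Grem1 lies at 0 in all 3 ACKR4_KO libraries, and Bmp6 and Bmp7 are the genes whose groups overlap.

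Divided by exon length, the ligand mRNAs spanned a wide range, and Bmp6 stood above the other members. BMP6 is best known as the signal from liver endothelial cells that raises hepcidin and so controls iron uptake. Its level was 20.4 ± 1.38 CPM per kb of exon in WT (mean ± SD, n = 3), or 68.9% ± 1.79 of the summed level of the 5 ligands, and 18.2 ± 3.71 CPM per kb in ACKR4_KO. Bmp4 followed at 6.94 ± 0.531 CPM per kb in WT. Bambi at 3.59 ± 0.109 and Bmper at 3.42 ± 0.345 CPM per kb came next and did not differ beyond their spread, and Bmp2 stood at 1.28 ± 0.0763. Chrdl1, Bmp7, Bmp5 and Grem1 had WT means between 0.321 and 0.568 CPM per kb, and their WT libraries overlapped. In ACKR4_KO the order of the first 5 genes by mean was the same.

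**Figure D2:**
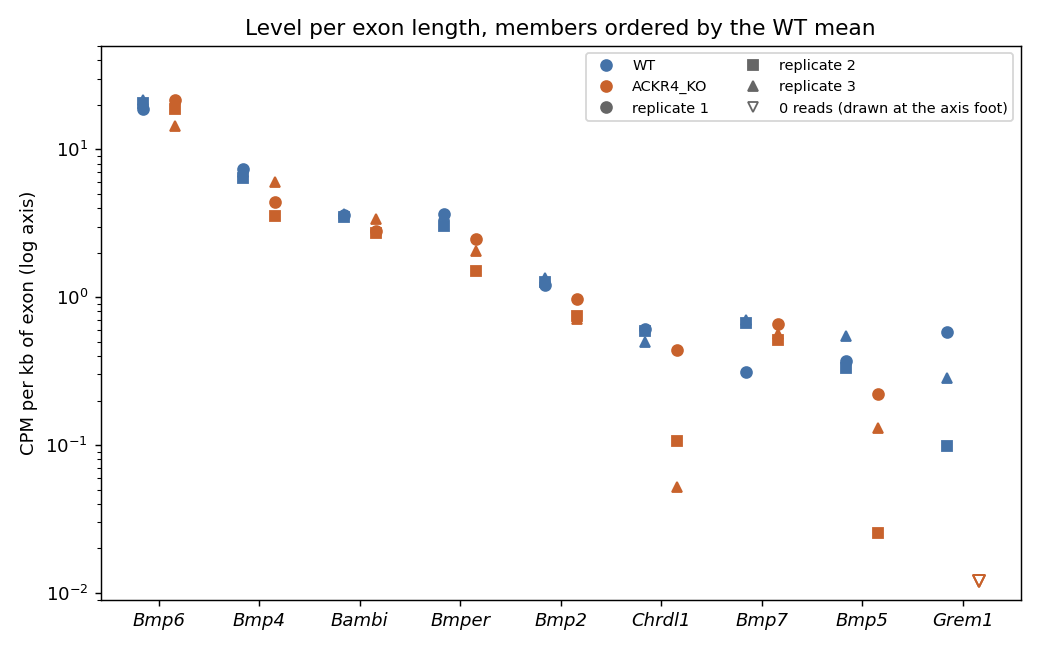
Level per exon length of each gene in CPM per kb of exon, on a log axis, with genes ordered by their WT mean and 1 symbol per library (WT in blue, ACKR4_KO in orange). Bmp6 lies highest at 20.4 CPM per kb in WT, and the open triangles at the foot of the axis mark the ACKR4_KO libraries with 0 reads of Grem1.

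Bmp2 and Bmp4 encode the closely related ligands that form the BMP2/4 branch, and both lay lower in ACKR4_KO. Bmp4 (chromosome 14, 46383520 to 46390669, minus strand, GRCm38) stood at 16.7, 14.3 and 15.8 CPM in WT replicates 1, 2 and 3, and at 9.85, 7.99 and 13.4 CPM in the ACKR4_KO replicates. The highest ACKR4_KO library, replicate 3, was close to the lowest WT library but did not reach it. The group means were 15.6 ± 1.19 and 10.4 ± 2.77 CPM (SD, n = 3 each), a log2 fold change of -0.58 ± 0.20 (standard error, SE). Bmp2 (chromosome 2, 133552159 to 133562885, plus strand) stood at 4.28, 4.53 and 4.82 CPM in WT and at 3.47, 2.66 and 2.53 CPM in ACKR4_KO. These values rest on 26 to 70 reads per library. The ACKR4_KO mean was 63.6% of the WT mean, with a log2 fold change of -0.65 ± 0.25 (SE). Summed per exon length, the BMP2/4 branch was at 8.22 ± 0.514 CPM per kb in WT and 5.45 ± 1.20 in ACKR4_KO.

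In the branch of BMP5, BMP6 and BMP7, the genotypes lay apart in Bmp5 and overlapped in Bmp6 and Bmp7. Bmp5 (chromosome 9, 75775364 to 75900310, plus strand) had 19, 13 and 32 reads in the WT replicates, which is 1.48, 1.34 and 2.20 CPM. In the ACKR4_KO replicates it had 11, 1 and 6 reads, which is 0.888, 0.103 and 0.524 CPM. Every ACKR4_KO library was below every WT library, although the exact 95% Poisson interval of ACKR4_KO replicate 1, 0.444 to 1.59 CPM, reaches into the WT range. Such intervals cover counting error only. The log2 fold change was -1.67 ± 0.58 (SE), and it was -2.34 without ACKR4_KO replicate 1. Of the 4025 exon bases of Bmp5, 1878 are shared with the antisense gene Gm26903, which had 0 reads in every library. The strand setting of the counting is not given, so the effect of this overlap on the Bmp5 counts is not known. Bmp5 lies on the same chromosome as Ackr4, 28.2 Mb away, and Bmper is 80.6 Mb from it.

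Bmp6 (chromosome 13, 38345107 to 38500302, plus strand) stood at 73.5, 80.7 and 84.1 CPM in WT and at 84.6, 72.7 and 55.9 CPM in ACKR4_KO. ACKR4_KO replicate 1 was the highest of the 6 libraries and replicate 3 the lowest. The log2 fold change was -0.16 ± 0.16 (SE). Its exons share 224 bases with Txndc5 on the other strand, which had 860 to 2342 reads per library, and the strand setting of the counting is not given. Bmp7 (chromosome 2, 172868012 to 172940321, minus strand), whose protein is known in mouse kidney to oppose TGF-beta, stood at 1.24, 2.67 and 2.82 CPM in WT. It was at 2.67, 2.05 and 2.27 CPM in ACKR4_KO, inside the WT range. Its log2 fold change of 0.06 had an SE of 0.38, and it was -0.24 without WT replicate 1, the lowest library, and -0.05 without ACKR4_KO replicate 1.

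The 3 secreted antagonists lay lower in all ACKR4_KO libraries, each at a different level. Bmper encodes the vertebrate relative of fly crossveinless-2, which binds BMPs outside the cell and can hinder or help their signal. The gene (chromosome 9, 23223076 to 23485200, plus strand) stood at 17.5, 14.6 and 17.5 CPM in WT and at 11.9, 7.27 and 9.86 CPM in ACKR4_KO. The gap between the lowest WT and the highest ACKR4_KO library was larger than the WT standard deviation of 1.67 CPM. The ACKR4_KO mean was 58.6% of the WT mean, and the log2 fold change was -0.77 ± 0.20 (SE). Chrdl1 encodes a chordin-like protein that binds BMP4. It lies on chromosome X (143285674 to 143394262, minus strand), and stood at 4.12, 4.01 and 3.38 CPM in WT. In the ACKR4_KO replicates it was at 2.99, 0.717 and 0.349 CPM, from 37, 7 and 4 reads. ACKR4_KO replicate 1 was near the WT libraries and the other 2 were far below them. The log2 fold change was -1.47 ± 0.63 (SE), and it was -2.85 without ACKR4_KO replicate 1 and -0.997 without ACKR4_KO replicate 3.

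Grem1 encodes gremlin 1, a cystine-knot protein that captures BMP2, BMP4 and BMP7 and is made by fibroblasts of several organs, the lung among them. The gene (chromosome 2, 113746164 to 113758646, minus strand) had 31, 4 and 17 reads in the WT replicates, which is 2.41, 0.411 and 1.17 CPM. It had 0 reads in each of the 3 ACKR4_KO libraries. With a floor of 3 reads over the ACKR4_KO group, 0.0893 CPM, the pooled WT level of 1.40 CPM was 15.7-fold above the floor. That value leaves out the counting error and the spread of the WT libraries. In a single ACKR4_KO library 3 reads are 0.242 to 0.307 CPM, not far below WT replicate 2. Among the WT libraries Grem1 differed 5.86-fold, with its lowest value resting on 4 reads. Bmp7 differed 2.27-fold and Bmp5 1.65-fold, also at low counts, and Bmp2, Bmp4, Bmp6, Chrdl1, Bmper and Bambi 1.06-fold to 1.22-fold.

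Transcripts of lung epithelium were unevenly present in the same libraries and moved with Grem1. The summed level of 10 lung epithelial markers was 266, 43.1 and 129 CPM in WT replicates 1, 2 and 3, a 6.18-fold range, and 0.404 to 1.92 CPM in the ACKR4_KO libraries. In 9 of the 10 markers ACKR4_KO lay lower without overlap, where 7.63% of all genes tested did. Sftpd, Scgb1a1 and Lamp3 did not pass the filter on low counts. Sftpc, Sftpd, Cxcl15, Scgb1a1, Slc34a2 and Cldn18 had 0 reads in all ACKR4_KO libraries. Sftpc, the surfactant protein of alveolar type II cells, had 1943, 237 and 1088 reads in the WT libraries. Per 1000 CPM of the lung list, Grem1 was at 9.06, 9.55 and 9.11 CPM in WT replicates 1, 2 and 3. In WT replicate 2 the ratio of Grem1 to lung markers rests on 4 Grem1 reads, with an exact 95% Poisson interval of 0.112 to 1.05 CPM. That ratio is loosely known, and so is how near it lies to the ratios of the other WT libraries. The part of lung RNA in the levels of Grem1 and the other members was not tested.

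**Figure D3:**
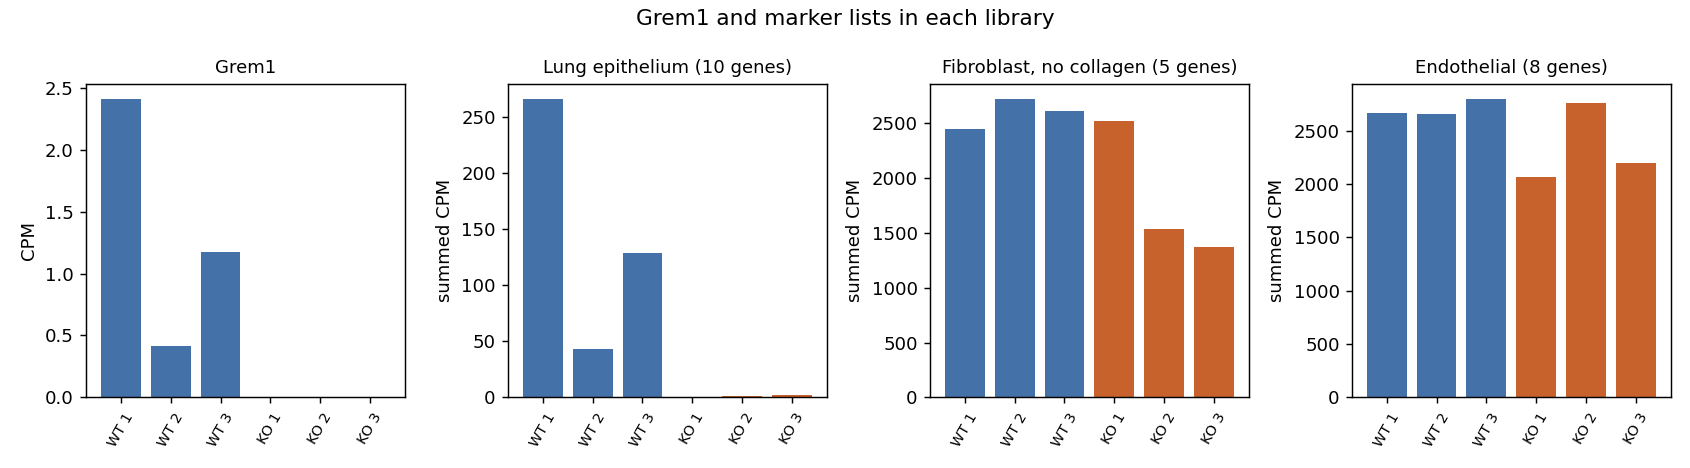
CPM of Grem1 and summed CPM of 3 marker lists in each library, as bars from 0, with WT in blue and ACKR4_KO (KO) in orange. Grem1 and the 10 lung epithelial genes are highest in WT replicate 1, lowest among the WT libraries in replicate 2 and at or near 0 in ACKR4_KO. The sum of the 5 fibroblast genes other than collagens is within the WT range in ACKR4_KO replicate 1 and below it in replicates 2 and 3. The 3 collagen genes of that list are not drawn. Their sum in ACKR4_KO replicate 3, 10010 CPM, is above the WT range of 7060 to 8259 CPM.

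Bambi (chromosome 18, 3507923 to 3516404, plus strand) varied least within WT, at 18.4, 17.6 and 18.7 CPM. It stood at 14.1, 13.7 and 17.0 CPM in ACKR4_KO, just below the WT libraries in replicate 3. The log2 fold change of -0.28 had an SE of 0.14.

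The ACKR4_KO libraries did not share 1 order over the genes. Replicate 2 was the lowest of all 6 libraries in Bmp4, Bmp5, Bmper and Bambi, and replicate 3 in Bmp2, Bmp6 and Chrdl1. The 8 fibroblast markers, planned as 1 list, summed to 9504 to 10980 CPM in WT and to 8897, 3809 and 11390 CPM in ACKR4_KO. The 3 collagen genes among them, Col1a1, Col1a2 and Col3a1, summed to 7060 to 8259 CPM in WT. In the ACKR4_KO replicates 1, 2 and 3 they summed to 6382, 2272 and 10010 CPM, the last above the WT range. The other 5, Pdgfra, Dcn, Lum, Tcf21 and Dpt, summed to 2444 to 2722 CPM in WT and to 2515, 1537 and 1372 CPM in ACKR4_KO. For this sum, replicate 1 was within the WT range and replicates 2 and 3 were below it. In replicate 3 Tcf21 did not follow the sum, at 32.0 CPM against 26.8 to 29.3 CPM in WT, while Pdgfra, Dcn, Lum and Dpt did. The sum of 8 markers of activated fibroblasts and late scar was 2309 to 2825 CPM in WT and 545 to 3382 CPM in ACKR4_KO. For 8 endothelial markers it was 2654 to 2803 CPM in WT and 2063, 2764 and 2202 CPM in ACKR4_KO, and for 5 endocardial markers 268 to 292 CPM and 312, 196 and 135 CPM. In the 8 genes of smooth muscle and pericytes the groups did not overlap, with 1640 to 1854 CPM in WT and 1310 to 1548 CPM in ACKR4_KO, nor did they in 8 T and NK cell genes (15.6 to 20.9 and 8.12 to 9.37 CPM). Single markers lay lower without overlap in 1 of 8 fibroblast, 5 of 8 scar, 1 of 8 endothelial and 1 of 5 endocardial genes. The same held for 4 of 8 smooth muscle, 4 of 8 T and NK cell, 1 of 6 atrial and 1 of 6 valve and cartilage-like genes. It held for 0 of 8 cardiomyocyte, 0 of 8 macrophage, 0 of 8 epicardial, 0 of 8 fast skeletal muscle and 0 of 6 adipocyte genes. Of all genes tested, 7.63% lay lower without overlap. Higher without overlap were 3 of 8 cardiomyocyte genes and 1 of 6 atrial genes, beside 6.53% of all genes tested. Apart from Bmp10 in the atrial list, at 0 in all libraries of both groups, none of these lists had a gene at 0 in all ACKR4_KO libraries. The part of these cell types in the levels of the BMP genes was not tested.

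Sums and ratios of ligand and antagonist mRNA restate the levels of the members. The members were chosen with these levels known, so nothing further is read from the sums and ratios. The summed ligand level per exon length was 28.1, 29.3 and 31.2 CPM per kb in WT and 28.0, 23.5 and 21.7 in ACKR4_KO. For the 3 secreted antagonists the sums were 4.81, 3.72 and 4.40 CPM per kb in WT and 2.92, 1.61 and 2.09 in ACKR4_KO. The ratio of ligand to antagonist mRNA was 6.94 ± 1.03 in WT and 11.5 ± 2.68 in ACKR4_KO (SD, n = 3 each), with each ACKR4_KO library above each WT library. Against Bmp2 and Bmp4 alone the ratio was 1.92 ± 0.133 in WT and 2.57 ± 0.685 in ACKR4_KO, and the groups overlapped. With Grem1 left out of the antagonists, the ratio of all 5 ligands was 7.44 ± 0.737 in WT, against 11.5 ± 2.68 in ACKR4_KO, and the groups again lay apart. Other secreted antagonists and modulators are not in these sums. Among them Fstl1, Twsg1 and Nbl1 were at 931, 135 and 100 CPM in WT, where Bmper was at 16.5 CPM. The ratios thus describe the members and not the balance of all ligands and antagonists in the tissue.

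The stretch around the transcript start is shown for Grem1, Bmper, Bmp4 and Bmp5, whose groups did not overlap. They were matched in the part of RefSeq's promoter table for GRCm38.p6 that was searched. The other members without overlap were not matched there or lay outside that part. Each stretch runs from 250 bases before to 50 bases after the start, 5′ to 3′ on the gene's strand. Capitals mark GGCGCC, a GC-rich element bound by BMP SMADs, and GTCT or its complement AGAC, the core of the SMAD binding element. Both strands are covered, since GGCGCC is its own complement, and no matches overlapped. Grem1 is at chr2:113758599-113758898, Bmper at chr9:23222826-23223125, Bmp4 at chr14:46390620-46390919 and Bmp5 at chr9:75775115-75775414.
Grem1: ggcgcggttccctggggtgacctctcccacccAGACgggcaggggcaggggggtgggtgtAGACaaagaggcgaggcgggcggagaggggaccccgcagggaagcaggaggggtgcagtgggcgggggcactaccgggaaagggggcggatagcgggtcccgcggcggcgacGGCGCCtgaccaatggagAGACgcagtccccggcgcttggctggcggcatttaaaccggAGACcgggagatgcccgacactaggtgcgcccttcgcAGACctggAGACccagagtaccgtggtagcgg
Bmper: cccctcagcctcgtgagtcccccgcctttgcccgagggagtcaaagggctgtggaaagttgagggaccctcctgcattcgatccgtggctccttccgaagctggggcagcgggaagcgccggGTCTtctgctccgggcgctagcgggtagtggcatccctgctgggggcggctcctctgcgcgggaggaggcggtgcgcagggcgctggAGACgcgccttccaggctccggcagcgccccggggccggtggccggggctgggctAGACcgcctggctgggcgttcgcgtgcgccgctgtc
Bmp4: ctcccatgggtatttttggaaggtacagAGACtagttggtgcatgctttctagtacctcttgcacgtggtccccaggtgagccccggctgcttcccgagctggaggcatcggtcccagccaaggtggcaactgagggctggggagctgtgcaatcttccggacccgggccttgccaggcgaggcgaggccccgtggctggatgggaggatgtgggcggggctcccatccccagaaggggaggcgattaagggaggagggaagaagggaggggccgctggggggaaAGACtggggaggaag
Bmp5: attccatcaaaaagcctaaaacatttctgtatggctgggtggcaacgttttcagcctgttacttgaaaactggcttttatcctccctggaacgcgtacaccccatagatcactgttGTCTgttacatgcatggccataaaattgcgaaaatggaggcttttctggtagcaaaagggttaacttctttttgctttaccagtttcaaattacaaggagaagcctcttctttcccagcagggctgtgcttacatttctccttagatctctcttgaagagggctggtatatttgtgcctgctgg

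Grem1 held 1 GGCGCC and 6 of the 4-base cores, Bmper 3 cores, Bmp4 2 and Bmp5 1. Of the 32851 promoter windows of this length searched, with chromosome 18 left out, 11.9% held GGCGCC and 88.0% held GTCT or AGAC. The short core is thus found in most windows. The windows of Grem1, Bmper and Bmp4 had a GC content of 70.7%, 72.7% and 64.0%, and that of Bmp5 43.3%, where the median window had 52.7%. Bmp6 also has an entry, with 4 cores and no GGCGCC, and its groups overlapped. A match is a description of letters and shows no binding.

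Beyond the 9 genes, 90 genes of the pathway and of related ligands were listed by role, and 69 passed the filter on low counts. By edgeR's quasi-likelihood test, 0 of the 69 passed an adjusted p of 0.05, as did 0% of all genes tested. At an unadjusted p under 0.05 there were 1 higher and 8 lower among the 69, beside 7.45% of all genes tested in either direction and 3.64% lower. Those of the 9 named below were named after their values were seen, and none of the adjusted p-values was below 0.606. DESeq2 and limma-voom also called 0 of the listed genes.

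The other ligands were mostly at or near 0. Bmp10, the BMP of atrial muscle, had 0 reads in all 6 libraries, which allows a level of up to 0.207 to 0.309 CPM per library. Only Gdf6, Gdf10 and Gdf3 of 13 passed the filter, with log2 fold changes of 0.36, -0.10 and -0.50, and 0 passed the test. The most abundant of 17 other antagonists and modulators were Fstl1, Twsg1, Nbl1 and Crim1. Fstl1, a secreted glycoprotein of stromal cells and epicardium, stood at 931 ± 40.7 CPM in WT, against 757 ± 417 CPM in ACKR4_KO (SD, n = 3 each). Twsg1, which forms a complex with chordin and BMPs, had a log2 fold change of -0.16, Nbl1 -0.34 and Crim1 0.01. Of the 11 tested, 5 had values above 0 and 6 below, with a median of -0.04, and leaving out ACKR4_KO replicate 2 gave a median of 0.07, leaving out ACKR4_KO replicate 1 one of -0.27.

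Among 12 receptors and co-receptors tested, 10 had log2 fold changes below 0, as had 48% of all genes tested, the median was -0.19, and 0 passed. The median was -0.06 without ACKR4_KO replicate 3 and -0.30 without ACKR4_KO replicate 1. Eng, the endothelial co-receptor endoglin, stood at 376 ± 19.4 CPM in WT, against 304 ± 71.0 CPM in ACKR4_KO. Its partner Acvrl1, the endothelial type I receptor for BMP9 and BMP10, was at 116 ± 6.68 and 88.9 ± 14.4 CPM with no overlap (log2 fold change -0.38, adjusted p = 0.661 by edgeR). Bmpr2, the main type II receptor, was at 119 ± 16.5 and 117 ± 14.3 CPM, and the co-receptor gene Hjv at 145 ± 15.7 and 169 ± 53.6 CPM. Rgmb, a co-receptor for BMP2 and BMP4, was at 45.7 ± 2.75 and 34.4 ± 2.36 CPM, a log2 fold change of -0.41 (adjusted p = 0.606 by edgeR). The groups did not overlap in 4 of the 12, all lower in ACKR4_KO, where 7.63% of all genes tested lay lower without overlap.

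Of the 14 SMADs and their regulators tested, 11 had log2 fold changes below 0, as had 48% of all genes tested. The median was -0.10 and 0 passed, and Smad1, Smad5 and Smad4 had log2 fold changes of -0.15, -0.16 and -0.02. The most abundant of the list over all 6 libraries, Ctdsp2, Ski, Ppm1a and Tob2, had -0.19, -0.11, 0.05 and 0.15. Smad9, also a target of the pathway, was at 3.22 ± 1.33 CPM in WT, against 2.02 ± 0.143 CPM in ACKR4_KO. Its log2 fold change was -0.68, with an adjusted p of 0.691 by edgeR.

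Target genes of BMP signalling had values on both sides of 0, more of them below. Of 15 tested, 3 had log2 fold changes above 0 and 12 below, where 48% of all genes tested were below 0. Lower without overlap were 4 of the 15 and higher 1, beside 7.63% and 6.53% of all genes tested. The median was -0.06, and 0 passed. The median was -0.21 without WT replicate 1 and -0.18 without ACKR4_KO replicate 2. Id1 stood at 96.6 ± 17.8 CPM in WT, against 100 ± 48.5 CPM in ACKR4_KO, with a log2 fold change of 0.06. Id3 was at 181 ± 20.0 and 154 ± 3.64 CPM, a log2 fold change of -0.24 with no overlap (adjusted p = 0.691 by edgeR). Id2, which other signals than BMP also induce, was at 41.5, 37.9 and 34.6 CPM in WT and at 29.3, 15.7 and 17.1 CPM in ACKR4_KO. Its log2 fold change was -0.87 ± 0.23 (SE), with no overlap and an adjusted p of 0.606 by edgeR. The inhibitory Smad6 had -0.39 with no overlap and an adjusted p of 0.661 by edgeR, and the inhibitory Smad7 had 0.02 with overlap. Msx1, a homeobox gene, had -0.56 and an adjusted p of 0.661 by edgeR, also with no overlap. The heart muscle transcription factor genes Tbx20 and Gata4 had -0.05 each, and Nkx2-5 had 0.32 with no overlap (adjusted p = 0.664 by edgeR). The summed cardiomyocyte markers were 31850 to 40480 CPM in WT and 41610 to 58160 CPM in ACKR4_KO.

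Enzymes that cut BMP precursors or chordin were tested in 6 of 7 cases, with a median of -0.21 on the log2 scale and 0 passed. Furin, the general proprotein convertase, stood at 106 ± 4.17 CPM in WT, against 126 ± 12.5 CPM in ACKR4_KO, and its groups did not overlap. Pcsk6 was at 169 ± 9.72 and 135 ± 27.6 CPM, also without overlap, and Pcsk5 at 12.8 ± 1.59 and 7.57 ± 1.87 CPM (log2 fold change -0.75, adjusted p = 0.606 by edgeR). Bmp1, a metalloproteinase that cuts procollagen and chordin and is no BMP ligand, was at 132 ± 10.5 and 124 ± 64.9 CPM, and Pcsk7 had a log2 fold change of -0.04.

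For the other TGF-beta family ligands the median over 8 genes tested was -0.26 and 0 passed, and it was 0.01 without ACKR4_KO replicate 2 and -0.73 without ACKR4_KO replicate 3. Tgfb3, Tgfb1, Tgfb2 and Gdf15 had log2 fold changes of -0.53, -0.23, -0.25 and -0.27. Inhbb, the activin B subunit, was at 15.8 ± 1.05 CPM in WT, against 8.99 ± 1.82 CPM in ACKR4_KO, and the log2 fold change was -0.81 with no overlap (adjusted p = 0.606 by edgeR).

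**Figure D4:**
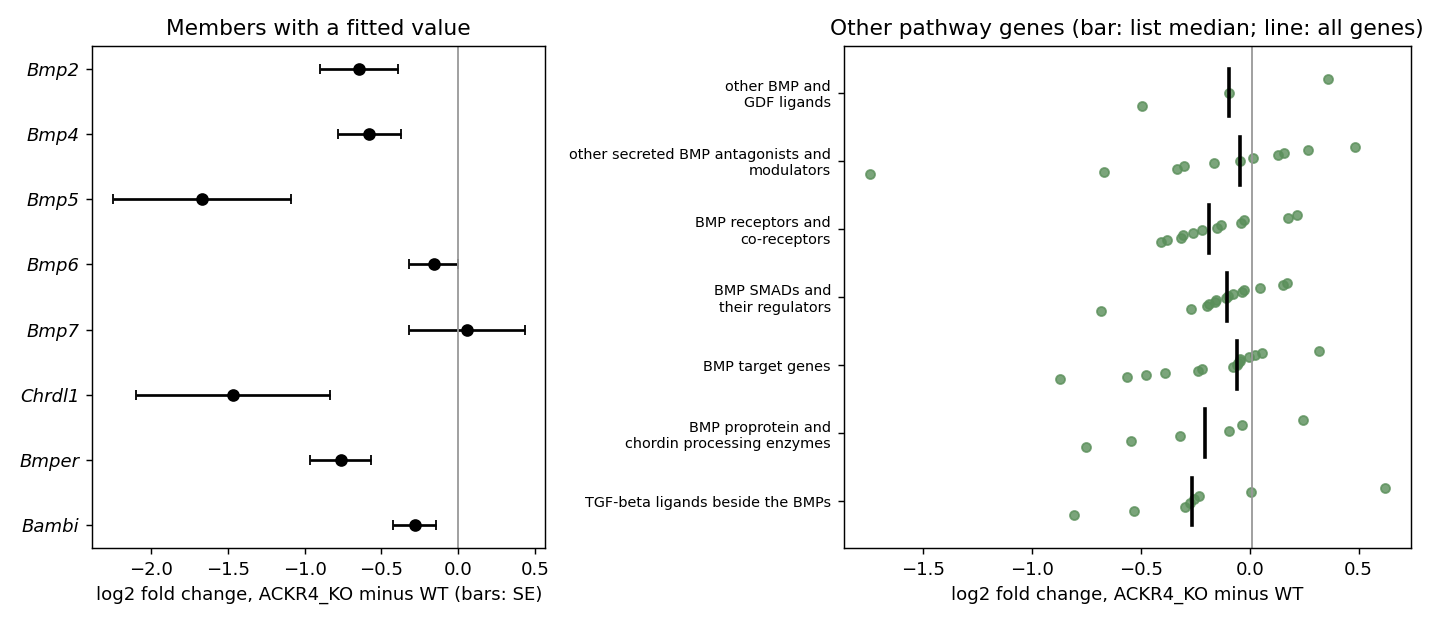
Left, the fitted log2 fold change (ACKR4_KO minus WT) of the 8 members that passed the filter, with bars for the standard error. Right, the same quantity for the 69 other pathway genes tested, 1 point per gene and 1 line per list, with a black bar at the list's median and a grey line at the median of all genes tested. Chrdl1 and Bmp5 lie farthest to the left among the members, at -1.47 and -1.67.

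Genes outside the list were compared with each member by the root mean square difference between centred log2 CPM profiles over the 6 libraries, among genes with a mean of at least 2 CPM. With so few libraries many genes come close to any profile, so this is a description only. The closest to Bmp4 were Plk2 and Mdfic, at 0.0611 and 0.0890, and to Bmp2 Glipr2 and Vmac, at 0.0508 and 0.0512. Bmper was nearest to Gpm6b and Rab23 (0.0751 and 0.0755), and Bambi to Cd34, a surface protein of endothelial and stromal cells, and Pygo2 (0.0316 and 0.0392). The closest to Bmp6 were Sh3bp5 and Xpo5, at 0.0255 and 0.0433, and to Bmp7 Tada1 and Letmd1, at 0.118 and 0.126. Chrdl1 was nearest to Cldn11 and Fbln1 (0.236 and 0.269), Bmp5 to Serpina3n and Egr2 (0.169 and 0.195), and Grem1 to the immediate early genes Egr1 and Fos (0.399 and 0.412), so the Grem1 profile had the least close neighbours.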

How the data were processed

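RNA sequencing libraries of heart tissue, 3 WT and 3 ACKR4_KO, were compared, grouped and numbered by their descriptions. The authors deposited raw counts, which are whole reads per Ensembl gene. Per the submitters' processing notes CASAVA 1.8.2, HISAT2 and HTSeq 0.6.0 were used with mm10. The annotation release and strand setting were not stated in these sources. Symbols, coordinates and union exon lengths were those of GENCODE M21 (GRCm38, equal to mm10). Promoter sequences were from RefSeq (GRCm38.p6), with chromosome 18 left out, and 5 of the 9 members were matched. Bambi lies on the chromosome left out, so its promoter was not searched, although its groups did not overlap.

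Genes were kept by filterByExpr (minimum count 10, minimum total 15), which left 14406. Library sizes were scaled by TMM, and CPM uses the scaled sizes, also for rows that failed the filter. The test was the robust quasi-likelihood test of edgeR 4.0.16 in R 4.3.3, two-sided, Benjamini-Hochberg adjusted over all genes tested, with a threshold of 0.05. SE stands for the log2 fold change over the square root of its F statistic. DESeq2 1.42.0 and limma 3.58.1 (voom) were alternatives, with 15 in all, and the fit was tested on simulated data. A pseudocount of 0.5 CPM was used for profile likeness. At 3 reads a library gives 0.207 to 0.309 CPM, the limit that a count of 0 allows.

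The members, gene lists and named-gene rule were chosen with earlier results of these data known. All 9 members are named. In each pathway list, genes past the threshold, filled up to 4 by level, are named, and others were named after their values were seen. The values of 1 listed pathway gene, which is counted, are not reported here.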

Additional observations from a re-analysis of the deposited data

How the results depend on the processing

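Across the 15 alternatives, the log2 fold changes of Bmp2, Bmp4, Bmp6, Chrdl1, Bmper and Bambi were below 0 in each, as was that of Bmp5 in the 14 that tested it, while Bmp7 turned in 2. The ranges were -0.81 to -0.55 for Bmp2, -0.80 to -0.42 for Bmp4, -2.34 to -1.23 for Bmp5, -0.31 to -0.01 for Bmp6, -0.24 to 0.27 for Bmp7, -2.85 to -0.997 for Chrdl1, -0.95 to -0.60 for Bmper and -0.38 to -0.22 for Bambi. Their median, -0.61, lay between -0.67 and -0.51 with 1 library left out. No listed pathway gene passed in any alternative. Over all genes 0 passed by edgeR, 41 by DESeq2 and 24 by edgeR without the filter on low counts, and 0 to 1 with each library left out in turn. At an unadjusted p under 0.05 the 1073 genes of edgeR became 478 without WT replicate 3 and 1906 without ACKR4_KO replicate 1. For Ackr4 the log2 fold change of -4.70 (adjusted p = 0.099 by edgeR) passed by DESeq2 (-4.73, adjusted p = 1.41e-18) and by edgeR without the filter (-4.70, adjusted p = 8.58e-05), and with a library left out it lay between -5.82 (without ACKR4_KO replicate 3, adjusted p = 0.00331) and -4.28. The adjusted p of Ackr4 ranged from 1.41e-18 to 0.84 over the alternatives. With the replicate number as a block, 6 genes passed over all genes, no pathway gene did, and the median of the members was -0.63. Deviations of same-numbered libraries correlated at 0.063, 0.06 and 0.129 across genes, and those of differently numbered libraries at -0.141 to 0.074. So few values cannot decide whether same-numbered libraries are paired, and the descriptions state no pairing. The cause of these shifts was not tested. Depth limits Grem1, Bmp5 and Chrdl1, with 0 to 11 reads in at least 1 library each.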
